A study of Mus musculus with 32 samples.

Results

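The complement components and regulators examined here were C3, C4b, Cfb, C1s1, C1ra, Serping1, Cd55 and Cd59a. These 8 genes of the complement system were chosen by name, with no threshold on a measured value, but with earlier results of these data known. Of these, 7 were found among the 11818 genes of the count table, and Cfb (factor B) was not analysed here. Complement is a cascade of plasma proteins, made mainly in liver and also by local cells such as lung fibroblasts and epithelial cells, that labels surfaces for uptake by phagocytes and can perforate membranes. In the classical pathway the proteases C1r and C1s, bound to C1q, cleave C4 and C2, and the resulting enzyme cleaves C3, the step at which all pathways meet. C1 inhibitor, the product of Serping1, blocks C1r and C1s in the fluid phase, whereas CD55 speeds the decay of the C3-cleaving enzymes and CD59 blocks the membrane attack complex on the surface of cells.

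The RNA came from organoid co-cultures in Matrigel of lung Epcam+ cells (CD31-/CD45-) from C57BL/6J mice aged 8 to 14 weeks and CCL206 cells, an established mouse lung fibroblast line. All cultures, controls included, contained fibroblasts whose proliferation had been inactivated with mitomycin C, and they were exposed for 72 h to vehicle, extracellular vesicles (EVs, 1000000000 particles per mL), soluble factors (SFs, 30 µg/mL) or recombinant human osteoglycin (OGN, 10 µg/mL). EVs and SFs were prepared from MRC5 cells, a human lung fibroblast line, so that human material acted on mouse cells. Cells were then sorted again with beads against Epcam, and the Epcam+ cells and CCL206 fibroblasts of each culture were sequenced apart, which gave 8 groups of 4 libraries. Cells of each of the 4 mice received all 4 treatments, while the fibroblasts were of 1 line throughout, so that the spread between fibroblast libraries is a spread between cultures. Levels are given as CPM, counts scaled to the size of each library. A transcript is called changed where the p of edgeR's quasi-likelihood test, adjusted by Benjamini-Hochberg over all genes tested, was under 0.05. Where fits with fewer libraries or other settings are named, the number of all genes called under them is not given. Counts of members under such fits therefore do not show whether members moved more than other genes.

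The 250 bases before the start sites of C3, C1s1 and C1ra are shown because these 3 transcripts rose together in OGN-treated fibroblasts. The RefSeq table (build GRCm38.p6) held a promoter for 5 of the 8 listed genes. Each window was searched on both strands for the binding motifs of C/EBP factors (TTNNGNAA), STAT factors (TTCNNNGAA), AP-1 (TGANTCA) and NF-kB (by its name only), and matches at different positions did not overlap. Capitals mark the matches, and every match found was to the C/EBP letters.
C3: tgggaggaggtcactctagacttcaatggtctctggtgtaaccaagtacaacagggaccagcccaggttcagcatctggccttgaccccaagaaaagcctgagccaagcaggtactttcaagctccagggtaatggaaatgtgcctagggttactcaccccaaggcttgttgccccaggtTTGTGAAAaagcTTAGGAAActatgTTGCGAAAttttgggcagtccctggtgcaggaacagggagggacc
C1s1: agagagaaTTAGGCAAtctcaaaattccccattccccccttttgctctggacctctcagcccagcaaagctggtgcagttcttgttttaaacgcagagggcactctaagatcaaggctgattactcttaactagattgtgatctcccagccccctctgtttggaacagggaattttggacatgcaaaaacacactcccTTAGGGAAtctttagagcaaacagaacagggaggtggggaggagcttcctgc
C1ra: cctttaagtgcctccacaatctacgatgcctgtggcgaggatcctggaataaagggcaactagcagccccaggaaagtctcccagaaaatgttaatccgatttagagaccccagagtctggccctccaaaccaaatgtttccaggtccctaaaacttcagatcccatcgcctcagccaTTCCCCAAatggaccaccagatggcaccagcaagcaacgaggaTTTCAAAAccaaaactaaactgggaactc
C3 lies on chromosome 17 (minus strand, window chr17:57228137-57228386) and had matches at 3 positions, which began 70, 58 and 45 bases before the start site, the last of them on both strands. C1s1 (minus strand, window chr6:124542360-124542609) had matches that began 242 and 52 bases before the start site shown, and a window of a second listed start site holds 1 of them. C1ra (plus strand, window chr6:124512371-124512620), a neighbour of C1s1 on chromosome 6, had matches 72 and 29 bases before its start. No motif searched was found in the windows of Cd55 and Cd59a. The windows of Cd55 and Cd59a are not printed, and no promoter was listed for C4b (chr17:34728139-34743902), Serping1 (chr2:84765360-84775444) or Cfb. C/EBP letters were present in 36.8% of all 32851 promoters of this length, STAT letters in 7.02%, AP-1 letters in 6.75% and NF-kB letters in 3.9%, so that a C/EBP match was common, and matches are given as a description of sequence and not as binding sites.

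Library depth lay between 1805914 and 17675454 counts (median 5901652), and no gene of the table is without a count in any library. Over the libraries C3 had between 1729 and 81022 counts, C1s1 between 272 and 16215, C1ra between 87 and 3810, C4b between 60 and 2232, Serping1 between 21 and 1124 and Cd55 between 17 and 1087. Cd59a had only 2 to 88 counts, and its fold changes had standard errors of up to 0.54 on the log2 scale. Markers followed the labels: the summed CPM of 5 epithelial genes (Epcam, Cdh1, Krt8, Krt18 and Krt19) was 5200 to 5392 in vehicle-treated Epcam+ libraries and 196 to 494 in vehicle-treated fibroblast libraries. The summed CPM of a fibroblast signature (9 of 10 genes in the table, among them Dcn, Lum, Col1a2 and Fn1) was 2239 to 3111 and 11569 to 12907 in these libraries, so that the Epcam+ libraries held fibroblast transcripts. That of an alveolar type 2 cell signature (10 of 10 genes, among them Sftpc) was 9552 to 15999.5 in the Epcam+ and 1876 to 4841 in the fibroblast libraries. The fibroblast libraries thus held transcripts of this epithelial signature as well. Of 14 listed leukocyte genes only Cd68, Cd14 and Cd74 were in the table, and Ptprc, which encodes CD45, was not. The sum of the 3 genes was 363 to 407 CPM in vehicle-treated Epcam+ and 56.2 to 98.1 CPM in vehicle-treated fibroblast libraries. Whether it came from leukocytes was not tested. Among fibroblast libraries exposed to EVs, those of mice 2 and 4 stood apart from the rest, with a trend of gene level along transcript length that is given with the EV results.

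Among the 7 transcripts in vehicle-treated cultures, those of secreted proteins were higher in the fibroblasts. Of the membrane regulators, Cd55 was higher in the Epcam+ cells and Cd59a did not pass the test. This split did not extend to the 15 further complement genes given below. Of these, 5 were higher in Epcam+ cells, the secreted Clu and Hc among them, and 8 were lower. C3, C4b, C1s1, C1ra and Serping1 were lower in Epcam+ cells than in CCL206 fibroblasts, and Cd55 was higher, so that 6 of 7 transcripts differed (71.4% of all 11749 genes tested differed between the populations). In such bulk samples more cells of a type and more RNA per cell cannot be told apart. In fibroblasts of mice 1 to 4, C3 had 2919, 2894, 3068 and 3316 CPM, and in Epcam+ cells 651, 704, 702 and 827 CPM. C4b had 164, 169, 169.9 and 185 CPM in fibroblasts and 24.3, 23.8, 23.9 and 30.7 CPM in Epcam+ cells. No value of C3 or C4b in Epcam+ cells reached that of any fibroblast library. Log2 fold changes of Epcam+ cells over fibroblasts were -2.08 ± 0.07 for C3 (adjusted p = 2.59e-09), -2.75 ± 0.09 for C4b, -2.41 ± 0.12 for C1s1, -2.28 ± 0.10 for C1ra and -2.42 ± 0.17 for Serping1 (the value after ± being the standard error, with adjusted p of at most 2.34e-07). Cd55 had 64.2, 58.9, 55.8 and 53.8 CPM in Epcam+ cells and 15.1, 4.16, 7.35 and 5.84 CPM in fibroblasts, a log2 fold change of 2.90 ± 0.23 (adjusted p = 8.03e-07) with no overlap of the groups. Cd59a, with 4.37, 4.18, 0.809 and 2.79 CPM in Epcam+ cells and 4.02, 5.55, 5.3 and 3.76 CPM in fibroblasts, did not pass the test (-0.66 ± 0.43, adjusted p = 0.186).

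Compared per kilobase of transcript, C3 was the highest of the 7 transcripts in all 8 groups and C1s1, the C1s protease, the next. In vehicle-treated fibroblasts the levels were 591 ± 37.5 CPM per kb (SD, n = 4) for C3, 231 ± 16.97 for C1s1, 60.3 ± 5.95 for C1ra, 31.7 ± 1.69 for C4b and 20.3 ± 2.73 for Serping1, with no overlap between neighbours of this order. Cd59a (2.73 ± 0.529) and Cd55 (2.48 ± 1.48) were lowest and overlapped. In vehicle-treated Epcam+ cells C3 had 139.8 ± 14.4 CPM per kb and C1s1 45.4 ± 15.8, followed by Cd55 with 17.8 ± 1.38, which overlapped C1ra (12.5 ± 3.14). C4b (4.72 ± 0.617) and Serping1 (3.91 ± 1.28) overlapped as well, and Cd59a (1.78 ± 0.965) was lowest. With OGN Serping1 stood above C4b in both populations without overlap, at 37.7 ± 1.99 and 27.4 ± 1.78 CPM per kb in fibroblasts and 6.37 ± 1.02 and 3.76 ± 0.525 in Epcam+ cells.

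**Figure D1:**
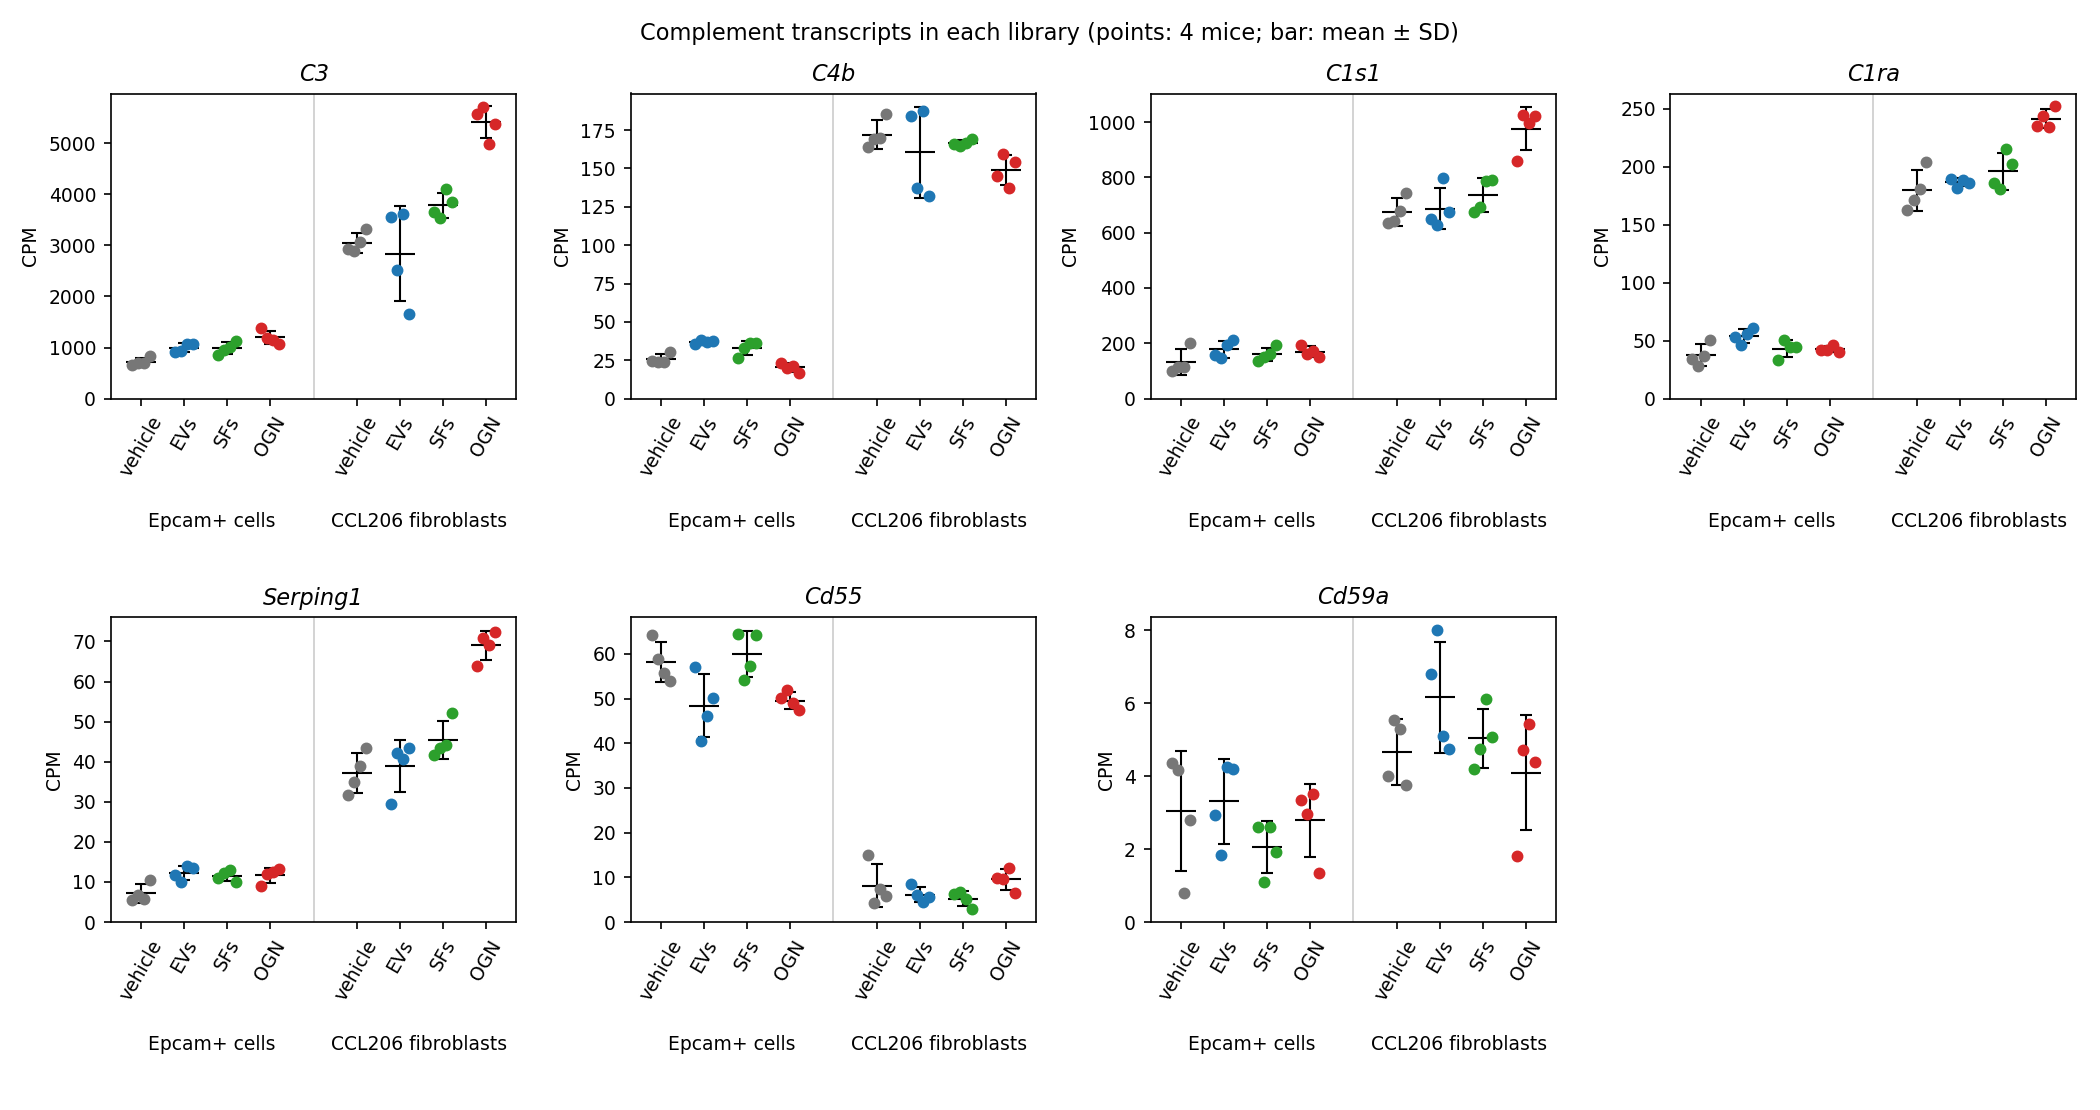
CPM of each complement transcript (linear axes starting at 0) in every library, by population and treatment, with 1 point per mouse in the order 1 to 4 from left to right and the mean ± SD as bars. C3, C1s1, C1ra and Serping1 stood higher in all 4 OGN-treated fibroblast libraries than in any vehicle-treated one, and Cd55 had at least 40.4 CPM in all Epcam+ libraries and at most 15.1 CPM in fibroblasts.

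The question asked of OGN in fibroblasts was which transcripts differed in the re-sorted supporting cells after the co-cultures had received this recombinant protein. C3, the protein on which all pathways converge, rose, and so did both proteases of the C1 complex and the inhibitor of these proteases. Thus 4 of 7 members were higher and 0 lower with OGN, where 4.56% of all 11689 genes were called (316 higher and 217 lower). The median log2 fold change was 0.43 over the 7 transcripts and -0.01 over all genes. As the members were chosen with earlier results of these data known, this share and this median describe the list only. C3 had 2919, 2894, 3068 and 3316 CPM in mice 1 to 4 with vehicle and 5575, 5701, 4989.8 and 5371 with OGN, a log2 fold change of 0.82 ± 0.17 (1.77-fold, adjusted p = 0.00879). Serping1 went from 31.8, 34.8, 38.8 and 43.3 CPM to 63.9, 70.8, 69.2 and 72.3 (0.89 ± 0.10, 1.86-fold, adjusted p = 3.43e-05). C1s1 went from 634, 642, 679 and 743 CPM to 859.9, 1025, 999 and 1022 (0.53 ± 0.09, adjusted p = 0.00122). These 3 transcripts were higher in 4 of 4 mice, and their OGN-treated libraries lay above all vehicle-treated ones. C1ra likewise went from 163, 172, 181 and 204 CPM to 235, 244, 235 and 252 without overlap (0.43 ± 0.08, adjusted p = 0.00462).

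C4b, the substrate of C1s, did not share this rise. It had 145, 159, 137 and 154 CPM with OGN against 164, 169, 169.9 and 185 with vehicle, lower in 4 of 4 mice and without overlap, and did not pass the test (-0.21 ± 0.11, adjusted p = 0.402). Without the EV-treated libraries in the model it did (adjusted p = 0.0245), which made 5 called members. Without mouse 2 the calls of C3, C1s1 and C1ra were lost (adjusted p = 0.151, 0.0537 and 0.105), and only Serping1 was called. The log2 fold changes of C3, C1s1 and C1ra were then 0.77, 0.48 and 0.40, against 0.82, 0.53 and 0.43 with all mice. Summed Cd68, Cd14 and Cd74, the leukocyte genes present, had 123 to 186 CPM in OGN-treated and 56.2 to 98.1 CPM in vehicle-treated fibroblast libraries, and their part in these results was not tested.

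**Figure D2:**
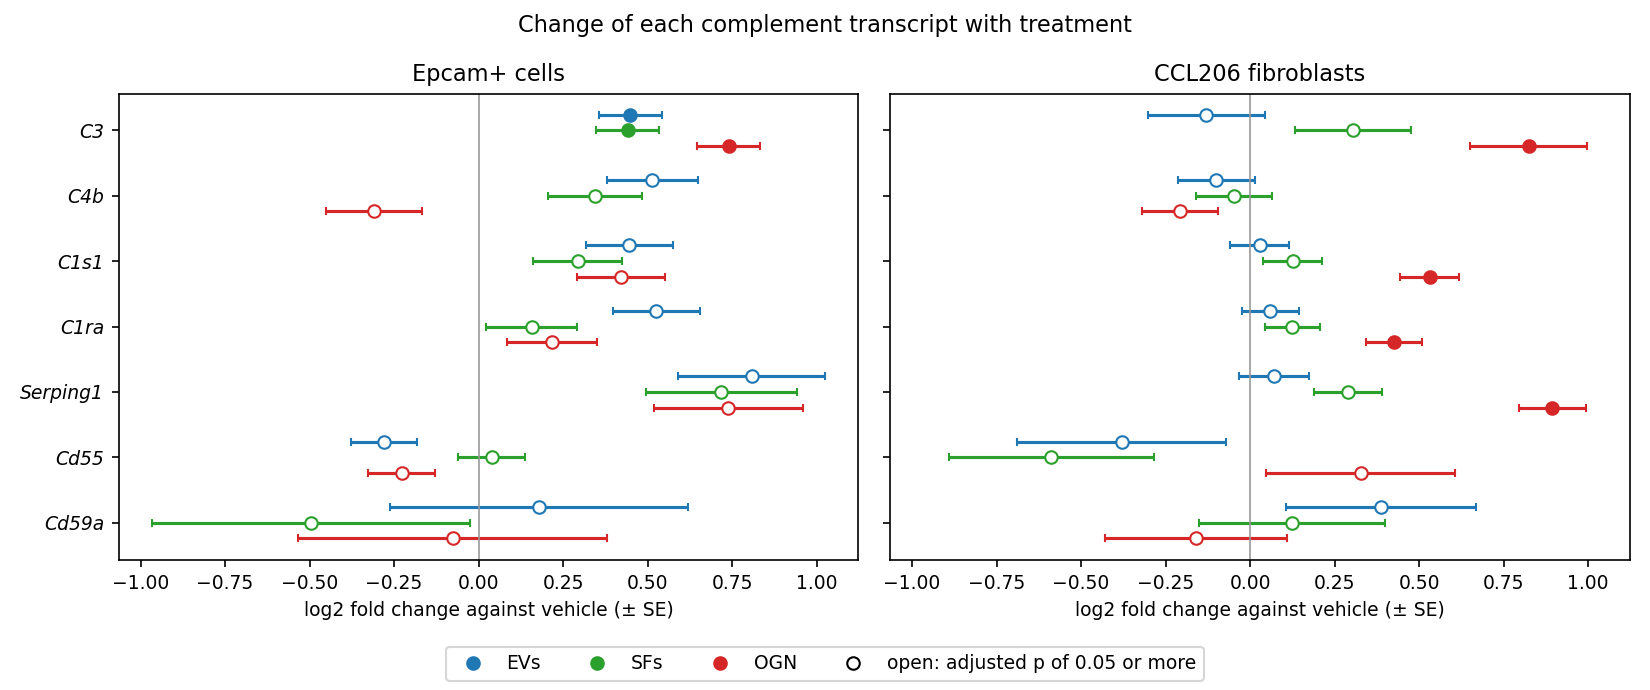
Log2 fold change of each transcript against vehicle (linear axis) with its standard error, by treatment, in Epcam+ cells on the left and CCL206 fibroblasts on the right, where filled points passed an adjusted p of 0.05. Filled points were C3 with each treatment in Epcam+ cells, and C3, C1s1, C1ra and Serping1 with OGN in fibroblasts.

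In Epcam+ cells OGN raised C3, and the other 6 transcripts did not pass the test, where 2.7% of 11716 genes were called. C3 had 651, 704, 702 and 827 CPM in mice 1 to 4 with vehicle and 1388, 1180.0, 1146 and 1072 with OGN, with no overlap (0.74 ± 0.09, 1.67-fold, adjusted p = 2.25e-05). This call was kept with each mouse left out in turn. Serping1 had 5.49, 6.75, 5.86 and 10.6 CPM and 8.98, 11.99, 12.6 and 13.2 (0.74 ± 0.22, adjusted p = 0.0841), with overlapping groups. C1s1 had 99.8, 114, 115 and 201 CPM and 196, 159.7, 171 and 152 (0.42 ± 0.13, adjusted p = 0.0976). In the vehicle-treated library of mouse 4, C1s1 stood above the other mice and above all 4 OGN-treated libraries, and without mouse 4 the change was called (log2 fold change 0.68, adjusted p = 0.000167). C4b had 23.4, 20.1, 21.5 and 16.7 CPM with OGN against 24.3, 23.8, 23.9 and 30.7 with vehicle, lower in 4 of 4 mice and without overlap (-0.31 ± 0.14, adjusted p = 0.349). C1ra differed by 0.22 ± 0.13. The summed leukocyte genes had 518 to 652 CPM in these OGN-treated libraries and 363 to 407 CPM with vehicle. The summed airway and basal genes (5 of 6 in the table, Krt5, Trp63, Krt15, Scgb1a1 and Foxj1) had 2609 to 4215 CPM in Epcam+ libraries with vehicle, 1353 to 2807 with OGN, 1498 to 2669 with EVs and 1533 to 2984 with SFs. These ranges overlapped that of vehicle, and the part of either marker list in the changes of Epcam+ cells was not tested.

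Fibroblast transcripts stood beside each of these values. In vehicle-treated cultures the Epcam+ libraries held 20.7% ± 2.35 of the fibroblast libraries' summed signature (mean ± SD over 4 cultures), and 23.6% ± 1.22 of their C3, 20.6% ± 3.41 of their C1ra, 19.3% ± 5.17 of their C1s1, 19.1% ± 4.001 of their Serping1 and 14.9% ± 1.18 of their C4b. With OGN these shares were 18.4% ± 2.27 for the signature and 22.1% ± 2.25 for C3, and the difference between the shares was not tested. Of the 9 signature genes, 8 were lower in Epcam+ cells with vehicle, Fbln1 being the exception. In these counts RNA carried over from fibroblasts and transcripts of the Epcam+ cells cannot be told apart. The summed signature itself was 2052 to 2588 CPM in OGN-treated Epcam+ libraries, a range that overlapped that of vehicle, with 1 of the 9 genes higher and 2 lower. Set against the summed signature of its own library, a scale chosen after the values had been seen, C3 was 29.1% ± 2.01 with vehicle and 51.9% ± 6.42 with OGN in Epcam+ cells, and 25.3% ± 0.657 and 42.9% ± 3.08 in fibroblasts. On this scale the OGN-treated libraries lay above the vehicle-treated ones in both populations, while C4b went from 1.03% ± 0.0474 to 0.883% ± 0.104 in Epcam+ cells and from 1.43% ± 0.00878 to 1.18% ± 0.0677 in fibroblasts, with OGN-treated libraries below all vehicle-treated ones.

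**Figure D3:**
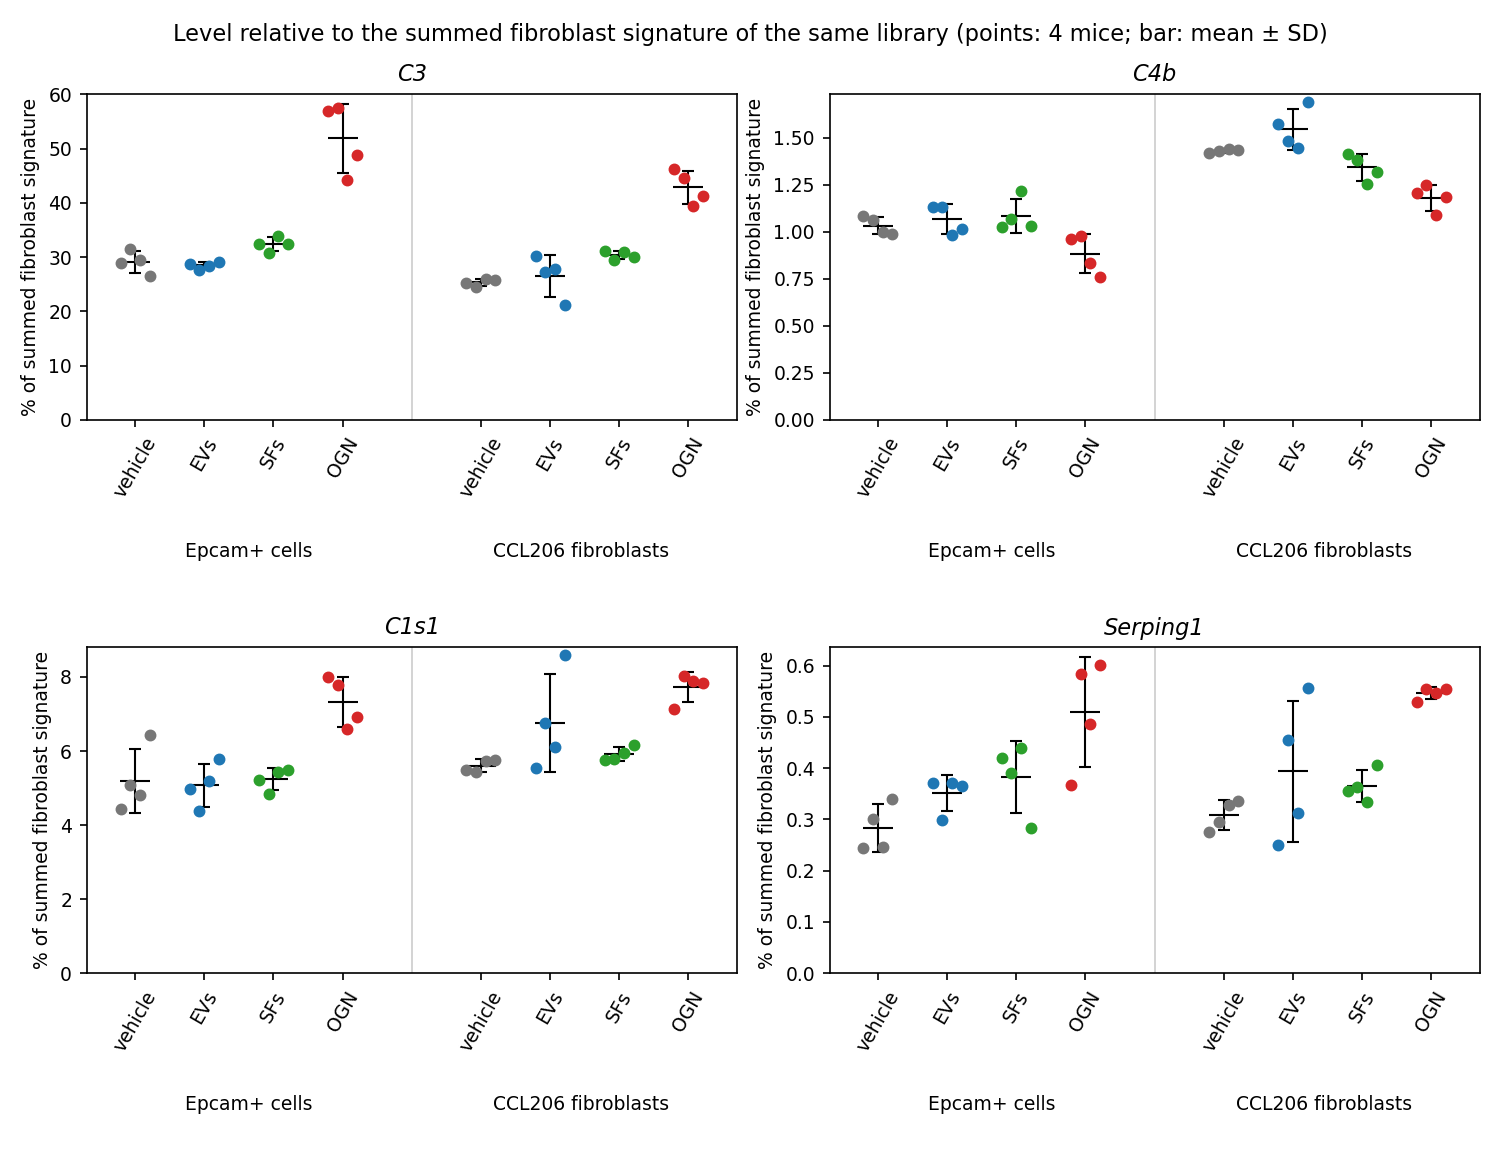
Level of C3, C4b, C1s1 and Serping1 as a percentage of the summed fibroblast signature of the same library (linear axes starting at 0), by population and treatment, with 1 point per mouse and the mean ± SD as bars. C3 lay between 26.6% and 31.5% in vehicle-treated and between 44.3% and 57.5% in OGN-treated Epcam+ libraries, while with EVs it lay between 27.7% and 29.1%.

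With EVs, C3 was the only member called in Epcam+ cells (1 of 7 transcripts, and 0.888% of all genes). An unadjusted p under 0.05 was found for 6 of 7 transcripts and for 1195 of all 11716 genes. C3 had 911, 931, 1063 and 1074 CPM in mice 1 to 4, above all vehicle-treated libraries (0.45 ± 0.09, adjusted p = 0.0199). C4b had 35.8, 38.1, 36.8 and 37.5 CPM, also without overlap (0.51 ± 0.13, adjusted p = 0.0759). C1ra had 53.4, 46.4, 55.9 and 61.04 CPM (0.53 ± 0.13, adjusted p = 0.0565). The log2 fold changes of C1s1 and Serping1 were 0.45 ± 0.13 and 0.81 ± 0.22, with higher values in 4 of 4 mice and overlapping groups (adjusted p = 0.129 and 0.0831). In the same libraries the summed fibroblast signature was 3162 to 3745 CPM, above the vehicle range of 2239 to 3111, with 4 of its 9 genes higher and 0 lower. Relative to that sum, C3 was 28.5% ± 0.619 with EVs against 29.1% ± 2.01 with vehicle, with overlapping ranges. Without mouse 1, 2 or 3 the call of C3 was lost (adjusted p = 0.0753, 0.106 and 0.278), as it was without the replicate block of mouse (0.0794), and without mouse 4 the number of called members was 5.

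SFs gave a similar value for C3 in Epcam+ cells, which was the only member called (0.23% of all genes). It had 845, 955, 1012 and 1136 CPM in mice 1 to 4, above all vehicle-treated libraries (0.44 ± 0.09, adjusted p = 0.0478). Serping1 had 10.9, 12.1, 13.1 and 9.92 CPM (0.72 ± 0.22, adjusted p = 0.348) and C4b 26.7, 33.1, 36.3 and 36.2 CPM (0.34 ± 0.14, adjusted p = 0.542). C1s1 and C1ra differed by 0.29 ± 0.13 and 0.16 ± 0.14. The summed fibroblast signature of these libraries was 2602 to 3509 CPM. The call of C3 lay close to the threshold and was lost under several settings, among them no replicate block of mouse (adjusted p = 0.231) and the absence of mouse 1, 2 or 3 (0.102, 0.306 and 0.433).

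With EVs none of the 7 members was called in fibroblasts, where 36% of all genes were called. By edgeR 0 of the 7 had an unadjusted p under 0.05, where 5591 of all 11689 genes did, and DESeq2 called 0 members as well. C3 had 3552, 2526, 3616 and 1656 CPM in mice 1 to 4, higher than with vehicle in mice 1 and 3 and lower in mice 2 and 4 (-0.13 ± 0.17, adjusted p = 0.573). C4b was split between the mice in the same way, with 185, 137, 188 and 132 CPM (-0.10 ± 0.11). C1s1 (651, 628, 796 and 673 CPM), C1ra (189, 182, 189 and 186) and Serping1 (29.5, 42.2, 40.7 and 43.5) overlapped vehicle. The libraries of mice 2 and 4 are those in which gene level fell most along transcript length, with Spearman's rho of -0.58 and -0.62 across genes, against -0.29 and -0.36 in mice 1 and 3 (genes of a library are not independent replicates). C3 and C4b have the longest transcripts of the 7 (5158 and 5435 nt). In mouse 4 the trend of all genes at the length of C3 was -0.45 on the log2 scale and C3 itself deviated by -0.88 from the mean of vehicle, and in mouse 2 the values were -0.31 and -0.27. Without mice 2 and 4 the log2 fold change of C3 was 0.26 (adjusted p = 0.345), and with the length trend taken out it was 0.08 (adjusted p = 0.662), so that the sign of this uncalled value turned.

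**Figure D4:**
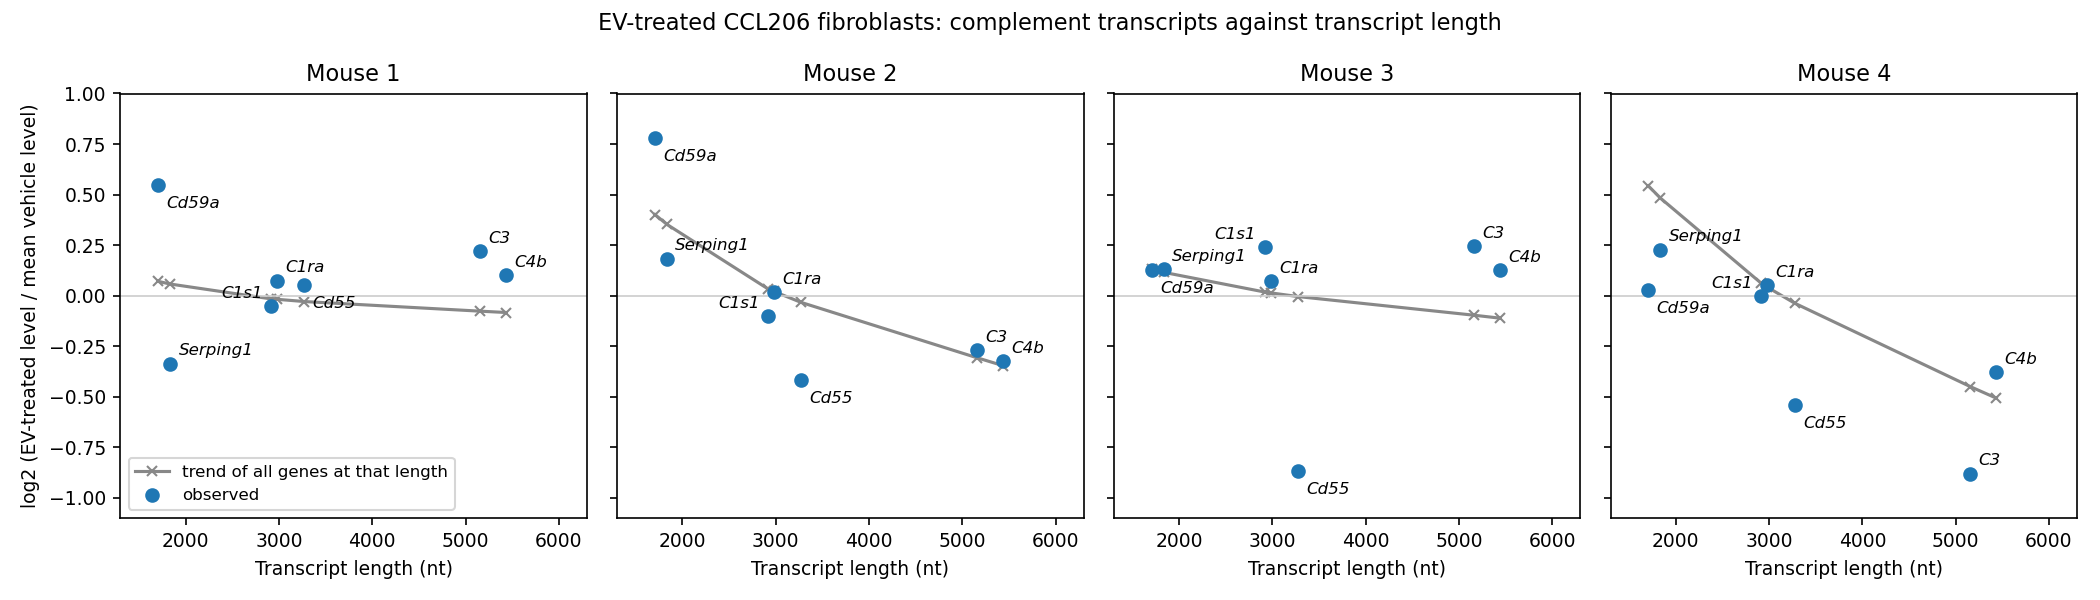
Log2 ratio of the EV-treated fibroblast level to the mean vehicle-treated level for each complement transcript against its transcript length (linear axes), by mouse, with the trend of all genes at the same lengths as crosses joined by a grey line. In mice 2 and 4 C3 and C4b lay between -0.88 and -0.27, and in mice 1 and 3 between 0.10 and 0.25.

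SFs left 0 of 7 members called in fibroblasts, where 0.0599% of all genes were called. Of the 7, Serping1 alone had an unadjusted p under 0.05 by edgeR, where 621 of all 11689 genes did, and DESeq2 called 0 members. C3 had 3647, 3532, 4096 and 3852 CPM, above all vehicle-treated libraries (0.31 ± 0.17, unadjusted p = 0.0949). Serping1 had 41.7, 43.5, 44.3 and 52.2 CPM (0.29 ± 0.10, adjusted p = 0.744). With only the 8 libraries compared in the model, C3 was called (log2 fold change 0.31, adjusted p = 0.000496), and likewise without the EV-treated libraries (adjusted p = 0.012). C4b, C1s1 and C1ra differed by -0.05 ± 0.11, 0.13 ± 0.09 and 0.13 ± 0.08.

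OGN was also set directly against the 2 fibroblast fractions. In fibroblasts, 4 of 7 transcripts were higher with OGN than with EVs (37.6% of all genes were called): C3 by 0.95 ± 0.17, Serping1 by 0.82 ± 0.10, C1s1 by 0.50 ± 0.09 and C1ra by 0.37 ± 0.08 on the log2 scale. Without mice 2 and 4, whose EV-treated libraries had the strongest length trend, C3 and Serping1 remained called. With the length trend taken out all 4 remained called, and C4b was called as well, lower with OGN (log2 fold change -0.33, adjusted p = 0.00523, against -0.11 ± 0.11 with the trend left in). Against SFs, Serping1 (0.60 ± 0.10, adjusted p = 0.003) and C1s1 (0.41 ± 0.09, adjusted p = 0.0171) were higher with OGN (2 of 7 transcripts, and 2.79% of all genes), and C3 did not pass (0.52 ± 0.17, adjusted p = 0.151). With only the 8 libraries compared, 5 members were called, whereas without mouse 2 or 3 none was (0 by edgeR). The share of all genes called in these fits is not given.

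In Epcam+ cells C4b was the member called between OGN and each of the fractions. It was lower with OGN than with EVs (log2 fold change -0.82 ± 0.13, adjusted p = 0.0008) and was the only member called, beside 2.22% of all genes. All 4 OGN-treated libraries lay below all EV-treated ones. Against SFs the difference was -0.65 ± 0.14 (adjusted p = 0.0145), again the only member called, beside 1.91% of all genes. The summed fibroblast signature moved with it, at 2052 to 2588 CPM with OGN, 3162 to 3745 with EVs and 2602 to 3509 with SFs, and 6 of its 9 genes were lower with OGN than with EVs and 5 of 9 lower than with SFs. Relative to that sum C4b was 0.883% ± 0.104 with OGN, 1.07% ± 0.0788 with EVs and 1.09% ± 0.0907 with SFs, and the part of the signature in the difference was not tested. The call against EVs was kept without each mouse, whereas that against SFs was lost without mouse 2, 3 or 4 (adjusted p = 0.0614, 0.143 and 0.118) and with only the 8 libraries compared (0.123).

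An interaction term over all 32 libraries compared the changes of the populations, as the log2 fold change in fibroblasts minus that in Epcam+ cells. With OGN, 0 of 7 transcripts had an interaction by edgeR (1 with an unadjusted p under 0.05, and 0 by DESeq2), where 0.551% of all genes did (813 with an unadjusted p under 0.05). C3 differed by 0.08 ± 0.21 and C4b by 0.09 ± 0.17. With EVs, 4 of 7 had one (23.8% of all genes): Serping1 with -0.78 ± 0.20 (adjusted p = 0.0101), C4b with -0.64 ± 0.17 (adjusted p = 0.0121), C1ra with -0.49 ± 0.15 (adjusted p = 0.0244) and C3 with -0.60 ± 0.21 (adjusted p = 0.038). In all 4 the log2 fold change was higher in Epcam+ cells than in fibroblasts, and the fibroblast side held the libraries of mice 2 and 4. Without these mice no member was called (0 by edgeR), with log2 differences of -1.15 for Serping1, -0.49 for C1ra, -0.43 for C4b and -0.30 for C3. With SFs, 0 of 7 were called by edgeR (3 with an unadjusted p under 0.05, and 0 by DESeq2), as were 0% of all genes (590 with an unadjusted p under 0.05).

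The membrane-bound regulators Cd55 and Cd59a were not called in any comparison of treatments with the model used throughout. Cd55 was higher with OGN than with SFs in fibroblasts in a model of those 8 libraries alone (log2 fold change 0.89, adjusted p = 0.0176) or of all but the EV-treated ones (adjusted p = 0.036), against 0.91 ± 0.30 (adjusted p = 0.142) otherwise. Cd55 had 50.03, 51.8, 49 and 47.4 CPM in OGN-treated Epcam+ cells of mice 1 to 4, below all vehicle-treated libraries (64.2, 58.9, 55.8 and 53.8), and the difference did not pass the test (-0.23 ± 0.10, adjusted p = 0.31). With EVs it had 57.1, 40.4, 46.1 and 50.2 CPM (-0.28 ± 0.10, adjusted p = 0.243) and with SFs 64.4, 54.1, 57.4 and 64.2 CPM (0.04 ± 0.10). In fibroblasts, where it was near its lowest counts, it had 9.97, 9.61, 12.1 and 6.54 CPM with OGN (0.33 ± 0.28). Cd59a had between 0.809 and 8.01 CPM over all libraries, and its log2 fold changes against vehicle lay between -0.50 ± 0.47 (SFs in Epcam+ cells) and 0.39 ± 0.28 (EVs in fibroblasts), so that a change within these errors was not detectable at this depth.

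Of 50 further complement genes listed, 15 were in the table. Hc, which encodes C5, the precursor of the terminal pathway, fell with OGN while C3 rose. It had 78.3, 60.8, 45.5 and 67.2 CPM in vehicle-treated and 42.3, 30.2, 26.2 and 16.1 CPM in OGN-treated Epcam+ cells of mice 1 to 4 (-1.11 ± 0.14, adjusted p = 2.24e-05), and 50.8, 30.5, 27.1 and 19.9 and 13.8, 14.9, 16.6 and 8.42 CPM in fibroblasts (-1.19 ± 0.18, adjusted p = 0.000666). The groups did not overlap in either population, and Hc was the only one of the 15 called in Epcam+ cells with OGN. In fibroblast libraries Clu, which encodes clusterin, a fluid-phase inhibitor of the terminal complex, was higher with OGN (1.06 ± 0.22, adjusted p = 0.00959). It went from 126, 82.3, 109.9 and 70.3 to 226, 149.6, 288 and 155 CPM. C1s2 rose by 0.67 ± 0.13 (adjusted p = 0.00422), so that 2 of 15 were higher and 1 lower, where 4.56% of all genes were called. The summed epithelial genes had 196 to 494 CPM with vehicle, 329 to 629 with OGN and 364 to 612 with EVs in fibroblast libraries. In these libraries RNA carried over from Epcam+ cells and transcripts of the fibroblasts cannot be told apart, and the part of the former was not tested. C1s2 is a close copy of C1s1, C4a of C4b, C1rb of C1ra and Cd59b of Cd59a, and how the counting shared their reads is not given in the sources used here, so that values of these pairs are uncertain. C1s2 had at most 43.0 CPM in any library and C4a at most 14.2.

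With EVs, 0 of the 15 were called in Epcam+ cells by edgeR (6 with an unadjusted p under 0.05, where 1195 of all 11716 genes had one). In fibroblasts 4 were higher and 4 lower, where 36% of all genes were called. The higher genes were Clu (0.84 ± 0.23), C1qbp (0.49 ± 0.12), C1rl (0.38 ± 0.12) and Calr (0.34 ± 0.11), and the lower genes Hc (-1.27 ± 0.19), Masp1 (-0.46 ± 0.15), Cr1l (-0.41 ± 0.13) and Colec12 (-0.30 ± 0.08). Masp1 encodes a protease of the lectin pathway, and C1qbp and Calr encode proteins that bind C1q. With SFs 0 of 15 were called by edgeR in either population (2 with an unadjusted p under 0.05 in each). Over all genes 913 had such a p in Epcam+ cells and 621 in fibroblasts. In Epcam+ cells Masp1 (-0.73 ± 0.12) and Hc (-0.76 ± 0.14) were lower with OGN than with EVs. Both were also lower than with SFs (-0.47 ± 0.12 and -0.98 ± 0.14). In these comparisons 6 and 5 of the 9 fibroblast signature genes were lower too, with a median log2 fold change of -0.65 and -0.42. With vehicle Masp1 had a mean of 322 CPM in fibroblasts and 53.3 CPM in Epcam+ cells, and the part of fibroblast transcripts in its values was not tested. Between populations, Clu was far higher in Epcam+ cells with vehicle (2919, 2960.3, 3438 and 3116 CPM, a log2 fold change of 5.03 ± 0.15), as were Susd4 (3.07 ± 0.42), Hc (1.00 ± 0.17), C6 (0.94 ± 0.33) and C1qbp (0.52 ± 0.07). Among those lower in Epcam+ cells were Colec12, Masp1, Itgb2, C1rl, C1s2, C4a and Cfp, with log2 fold changes from -2.62 for Colec12 to -1.13 for Cfp.

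**Figure D5:**
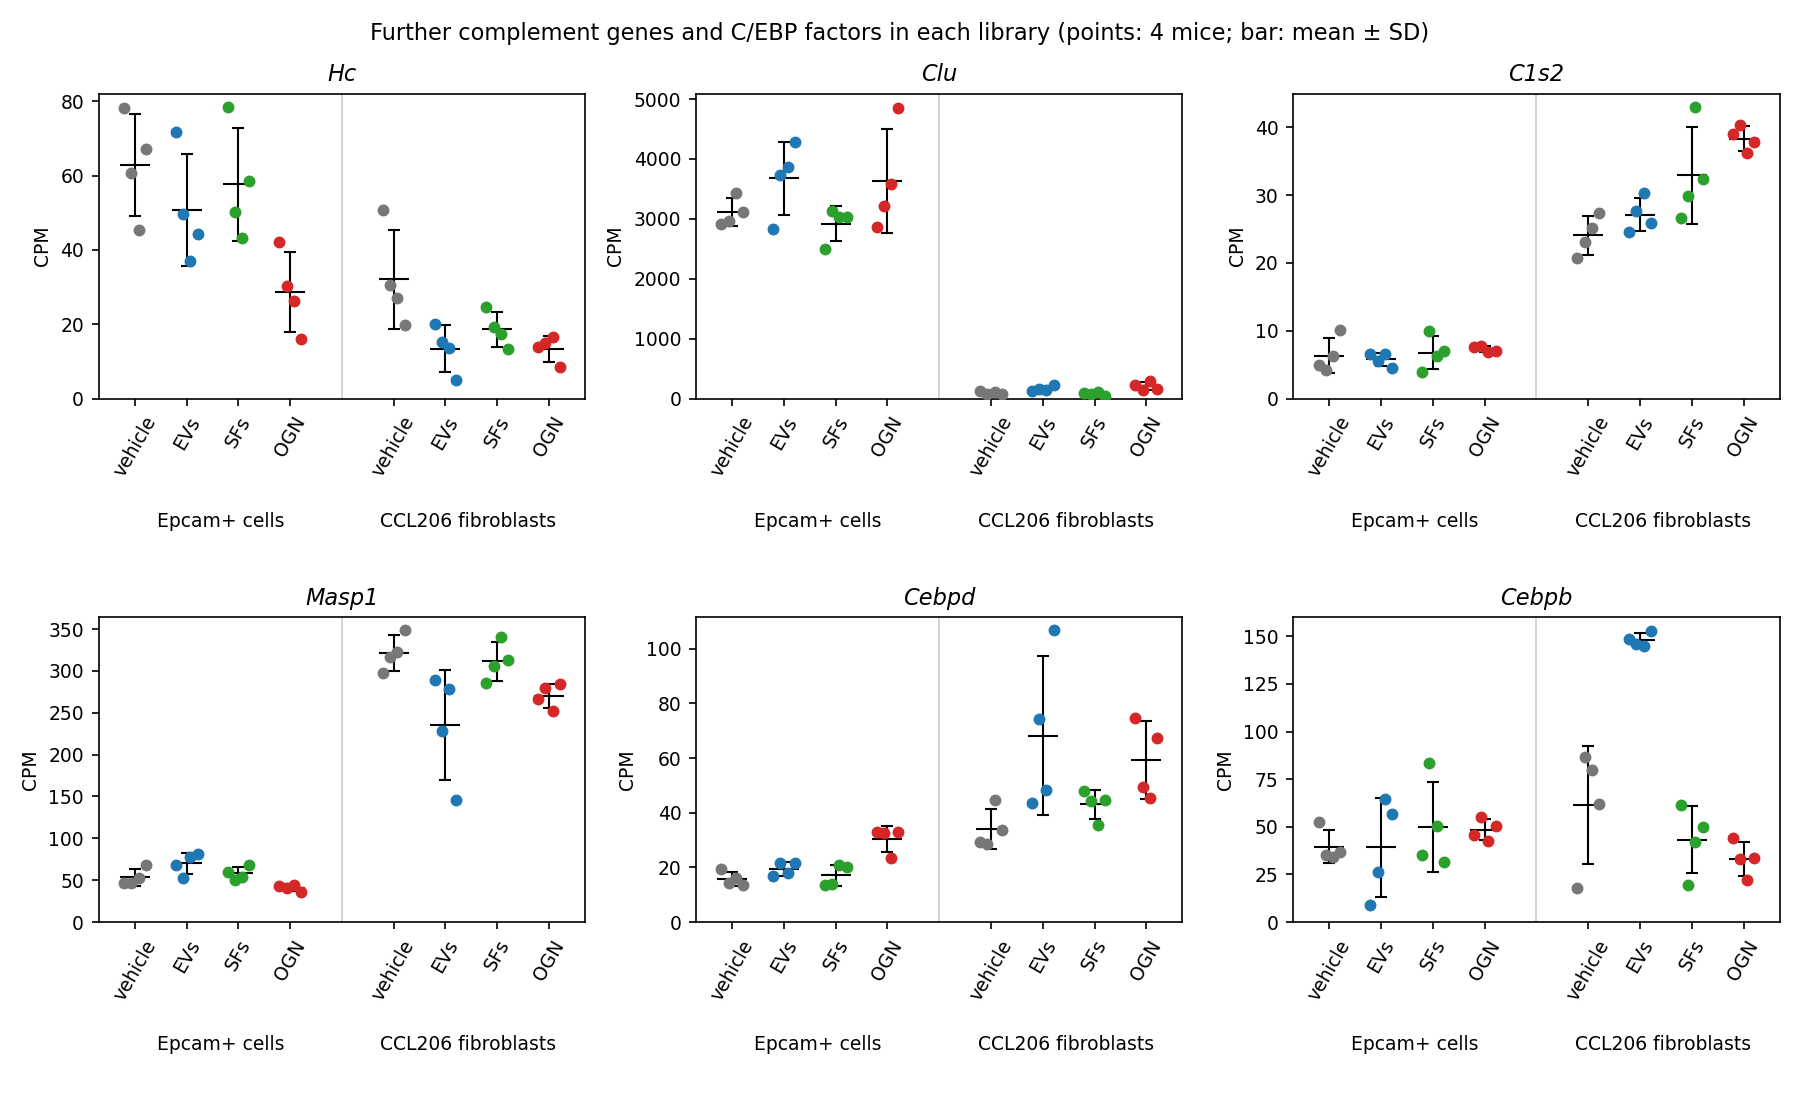
CPM of 4 further complement genes and 2 genes of C/EBP factors (linear axes starting at 0) in every library, by population and treatment, with 1 point per mouse and the mean ± SD as bars. Hc lay lower in all OGN-treated libraries than in the vehicle-treated libraries of the same population, and Cebpb stood at 145 to 153 CPM in EV-treated fibroblasts.

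The 17 listed transcription regulators of acute-phase and complement genes, which include the C/EBP, NF-kB, STAT and IRF families, were all in the table. With OGN 1 was higher and 0 lower in Epcam+ cells (2.7% of all genes were called): Cebpd, which had 19.3, 14.5, 15.97 and 13.4 CPM with vehicle and 32.9, 32.6, 23.4 and 32.8 with OGN (0.89 ± 0.18, adjusted p = 0.00574), without overlap. In fibroblasts (4.56% of all genes) Nfkb1 was higher (0.55 ± 0.10, adjusted p = 0.00224) and Irf1 lower (-0.77 ± 0.12, adjusted p = 0.000978), while Cebpd did not pass (0.76 ± 0.23, adjusted p = 0.0846). With EVs 3 were higher and 2 lower in fibroblasts (36% of all genes were called), among them Cebpb, with 149, 146, 145 and 153 CPM against 17.9, 86.7, 80.04 and 61.8 with vehicle (1.27 ± 0.38), and Cebpd (0.95 ± 0.24). With SFs 0 were called in either population by edgeR (0 with an unadjusted p under 0.05 in each, where 913 of all genes had one in Epcam+ cells and 621 in fibroblasts).

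Log2 CPM was correlated over the 16 libraries of a population after the mean of each mouse had been taken out. By the highest Pearson correlations, the genes most like C3 in fibroblasts were Hgf (r = 0.986), Susd6 (0.978) and Antxr1 (0.976). In Epcam+ cells they were Pcdh7 (0.946), Fndc3b (0.944) and Hgf (0.941). For C1s1 in fibroblasts they were Lox (0.984), Ero1a (0.979) and Pfkp (0.974), for C1ra Ero1a (0.965), Fam20c (0.957) and Gys1 (0.955), and for Serping1 Kdm4b (0.971), Afg3l2 (0.969) and Gdpd1 (0.966). Hgf, which encodes hepatocyte growth factor, was in the list of C3 in both populations. The libraries share treatments and, with EVs, the length trend, while the means of the mice were taken out. The genes were picked as the highest of all genes, so that these values describe the libraries.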

How the data were processed

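RNA of 32 libraries (8 groups of 4) was analyzed. The authors had the reads sequenced on a NovaSeq instrument, trimmed with Trimmomatic (version 0.30, per the labels), mapped and counted per gene, and deposited raw counts in 1 table of 11818 genes. The aligner and counting program are not given in the sources used here, and the build is GRCm38 (patch 6) in the methods and GRCm39 in the labels. Gene positions and promoters were taken from RefSeq (GRCm38.p6), and transcript lengths from GENCODE, matched to 11621 genes (98.33%). A gene had to have at least 1 count in every library to be in the table, so that genes silent in 1 population are absent.

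Genes were kept with filterByExpr, normalized by TMM and tested with the quasi-likelihood test of edgeR (version 4.0.16, R version 4.3.3) over the 16 libraries of a population with mouse as a block, over 8 libraries for the populations and over 32 for the interaction. The standard error was taken as the size of the log2 value over the root of the F statistic. CPM was scaled by TMM over all libraries. Mice pair the libraries, and residuals of libraries of 1 mouse had a mean r of 0.10 to 0.23. Between mice the mean r was -0.07 to -0.03. The mean of each group had been taken out, which ties the value between mice to that within a mouse, so that it is no separate contrast. No 2 replicates agreed within sampling noise (lowest chi-square per degree of freedom 2.98 over 48 pairs). Alternatives were no block, DESeq2, RLE size factors, no filter or at least 10 counts, fewer libraries, each mouse left out and the length trend taken out. All genes of the table that are members were named. Members and lists were chosen with earlier results of these data known. The pipeline was tested on simulated data.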

Additional observations from a re-analysis of the deposited data

Results flagged for a closer look

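In 3 of 56 sets of 4 libraries (7 transcripts in 8 groups), 1 library lay far from the other 3 by Dixon's criterion, and chance alone marks about 1 set in 20. C4b had 30.7 CPM and C1s1 201 CPM in the vehicle-treated Epcam+ library of mouse 4, above the other mice. C1s1 had 859.9 CPM in the OGN-treated fibroblast library of mouse 1, below the other mice.

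The change with EVs differed between the populations for 4 transcripts by the interaction term. The log2 fold change in fibroblasts minus that in Epcam+ cells was -0.60 for C3, -0.64 for C4b, -0.49 for C1ra and -0.78 for Serping1. With the trend on transcript length taken out of each library, Serping1 was still called, whereas adjusted p was 0.198 for C3, 0.124 for C4b and 0.0502 for C1ra. The cause of these differences was not tested.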

How the results depend on the processing

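Of the values of single transcripts recomputed under the alternatives, 961 kept their direction and side of the threshold, 48 lost and 27 gained a call, and none that was called changed sign. Numbers of called members that moved are given here against those in the report. The number of all genes called under each setting, or with a mouse left out, is not given. These counts therefore do not show whether members moved more than other genes. With OGN in Epcam+ cells (1), DESeq2 called 2. With EVs in Epcam+ cells (1), the model with no replicate block called 0, DESeq2 4, a minimum of 10 counts 2 and the 8 libraries alone 2. With SFs in Epcam+ cells (1), no replicate block, RLE size factors and the 10-count minimum each called 0. With OGN in fibroblasts (4), the fit without EV-treated libraries called 5. With SFs in fibroblasts (0), the 8 libraries alone and the fit without EV-treated libraries each called 1. For OGN against SFs in Epcam+ cells (1), DESeq2 called 2 and the 8 libraries alone 0. For OGN against EVs in fibroblasts (4), the 8 libraries alone and the fit without mice 2 and 4 each called 2, and that with the length trend taken out 5. For OGN against SFs in fibroblasts (2), the 8 libraries alone and the fit without EV-treated libraries each called 5, and DESeq2 3. For the interaction with EVs (4), DESeq2 and the 10-count minimum each called 5, the 16 libraries alone 1, the fit without mice 2 and 4 called 0 and that with the length trend taken out 1. The replicate block changed no other count of members.

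With each mouse left out in turn, the number called was 1 to 2 with OGN, 0 to 5 with EVs and 0 to 1 with SFs in Epcam+ cells, 1 to 4 with OGN in fibroblasts, 1 to 2 for OGN against EVs and 0 to 1 for OGN against SFs in Epcam+ cells, 3 to 4 and 0 to 1 for these in fibroblasts, 6 between populations and 1 to 3 for the interaction with EVs. The cause of these moves was not tested beyond the fewer libraries. Depth limits Cd59a most, with 2 counts in its shallowest library.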

Other observations

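Among the 17 transcription regulators, 2 were higher and 10 lower in vehicle-treated Epcam+ cells than in fibroblasts, where 71.4% of all genes differed. Cebpa was higher by a log2 fold change of 2.69 ± 0.14 and Nfkb1 by 0.27 ± 0.09, while Nfkbiz (-1.71 ± 0.08), Cebpd (-1.08 ± 0.16), Stat2 (-1.04 ± 0.14) and Nfkb2 (-0.89 ± 0.07) were among the lower ones. OGN against EVs in fibroblasts gave 3 higher and 4 lower regulators (37.6% of all genes were called), among them Cebpb (-2.19 ± 0.40), Rel (1.03 ± 0.26) and Stat3 (0.46 ± 0.09), with the EV-treated libraries of mice 2 and 4 on 1 side of this comparison. In the mesothelial list, Msln alone was present, at 372 to 460 CPM in vehicle-treated Epcam+ cells and 51.8 to 62.5 CPM in fibroblasts.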
